A study of Homo sapiens with 16 samples.

Results

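The nuclear genes for the subunits of the mitochondrial respiratory chain and ATP synthase were followed in IMR32 cells after knockdown of TPX2, a spindle assembly factor that activates the mitotic kinase Aurora A. Members were chosen by symbol alone: protein-coding genes whose symbol begins with NDUFA, NDUFB, NDUFC, NDUFS, NDUFV, UQCR, COX4 to COX8 or ATP5, together with SDHA, SDHB, SDHC, SDHD and CYC1, without the NDUFAF assembly factors. This gave 91 of the 58787 genes in the count table, 38 in complex I, 4 in complex II, 10 in complex III, 19 in complex IV and 20 in complex V. IMR32 is an established MYCN-amplified human neuroblastoma line, labelled as a neuroblast. The 16 libraries fall into 4 groups of 4 replicates that the submitters call biological: siNTC, labelled as the control, and si45, si46 and si47, which are 3 different siRNAs each labelled as a TPX2 knockdown. The column names give 48 h, and all groups come from this 1 line, so they describe transient knockdown in a single cell line. Libraries were made from the 3′ ends of transcripts (QuantSeq), so that a transcript gives about 1 tag whatever its length. Levels are given as CPM, the counts of a gene scaled to a common library size. They can be set side by side between genes whose reads are not shared with a copy or an overlapping gene.

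The respiratory chain passes electrons from NADH (complex I) and succinate (complex II) through ubiquinone to complex III, cytochrome c and complex IV, where oxygen is reduced. Complexes I, III and IV pump protons across the inner mitochondrial membrane, and the ATP synthase (complex V) uses the returning flow to make ATP. Most subunits are encoded in the nucleus and imported, and a small set is encoded by the mitochondrial genome. NRF1, the ETS factor GABPA and YY1 are the transcription factors best known for binding promoters of the nuclear genes.

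Promoter motifs were read from RefSeq promoters (GRCh38.p14, 250 bases before to 50 after the start), which were matched for 71 of the 91 members. The NRF1 motif, searched on both strands as GCGC and TGCGC with any single base between them, was in 17 of the 71 promoters (23.9%), against 6.28% of all 27305 promoters and 12.4% of the 10170 promoters of genes tested below. The ETS motif CCGGAAG was in 20 (28.2%), against 10.7% of all promoters and 19.7% of those of genes tested. The YY1 motif AAGATGG was in 16 (22.5%), against 6.06% and 7.84%. In all, 41 members held at least 1 of the 3 motifs. The 7 genes that rose after knockdown, described below, include 5 with a promoter in the table. Of these, NDUFB4 was the one with the NRF1 motif and ATP5MK the one with the ETS motif. The windows of both are shown because these are the 2 promoters of risen genes that held any of the 3 motifs, with the motif or its reverse complement in capitals, read 5′ to 3′ in the direction of transcription.
NDUFB4, chr3:120596169-120596194, plus strand, motif 159 bases before the start: agcacttcGCGCATGCGCatatcacc
NDUFB4, chr3:120596265-120596290, plus strand, motif 63 bases before the start: ctgctaacGCGCAGGCGCacttcctg
NDUFB4, chr3:120596320-120596345, plus strand, motif 8 bases before the start: tcagaatcGCGCAGGCGCaattgtgc
ATP5MK, chr10:103396620-103396644, minus strand, motif 160 bases before the start: gcaattcttCCGGAAGtgtgggcgg
ATP5MK, chr10:103396463-103396487, minus strand, motif 3 bases before the start: aggtggcttCTTCCGGccgggccga
NDUFB4 thus held 3 matches, and the ATP5MK match at 160 bases overlaps its own reverse match by 4 bases. A match is a run of letters and does not show that a factor binds there.

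Total counts ran from 5318159 to 7864343 per library. Of the 37 genes of the mitochondrial genome in GENCODE, 0 had a row in the count table, so levels and shares of counts leave them out. TPX2 was at 296.7 to 358.9 CPM in the controls and at 62.2 to 121.0 CPM in the 12 knockdown libraries, with the highest level of each knockdown group in replicate 3. All 12 sympathetic neuroblastoma markers examined were above 1 CPM in every group. Immune markers summed to at most 3.53 CPM, with CD3E and LYZ at 0, PTPRC above 1 CPM in siNTC and CD14 above 1 CPM under si47. Fibroblast markers summed to 55.0 to 113.6 CPM, with COL1A1, PDGFRB and THY1 above 1 CPM in every group and FAP at 0. Muscle markers summed to 6.06 to 17.0 CPM. Of these, CKM and TNNT2 were above 1 CPM in every group, ACTA1 in all but si45, and MYH7 and MYH2 were at 0.

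Subunit genes were among the more abundant transcripts of these cells. In the controls the 83 members that passed the filter on low counts had a median of 153.3 CPM, against 19.6 CPM for all 14193 genes tested, and 52 of the 91 were above 100 CPM. ATP5MC1, which encodes the c subunit of the ATP synthase rotor ring, was highest at 545.5 ± 24.5 CPM (SD, n = 4). ATP5MC2, another c-subunit gene, was at 522.1 ± 53.3, and ATP5F1E, the epsilon subunit of the F1 head, at 493.7 ± 12.1. The spreads of these 3 genes overlap. Complex I was led by NDUFS5, an accessory subunit, at 493.6 ± 42.0 CPM. Complex IV was led by COX8A at 369.3 ± 20.9 CPM. Levels varied little between controls: the median coefficient of variation was 9.07% for the tested members and 15.5% for all genes tested.

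**Figure D1:**
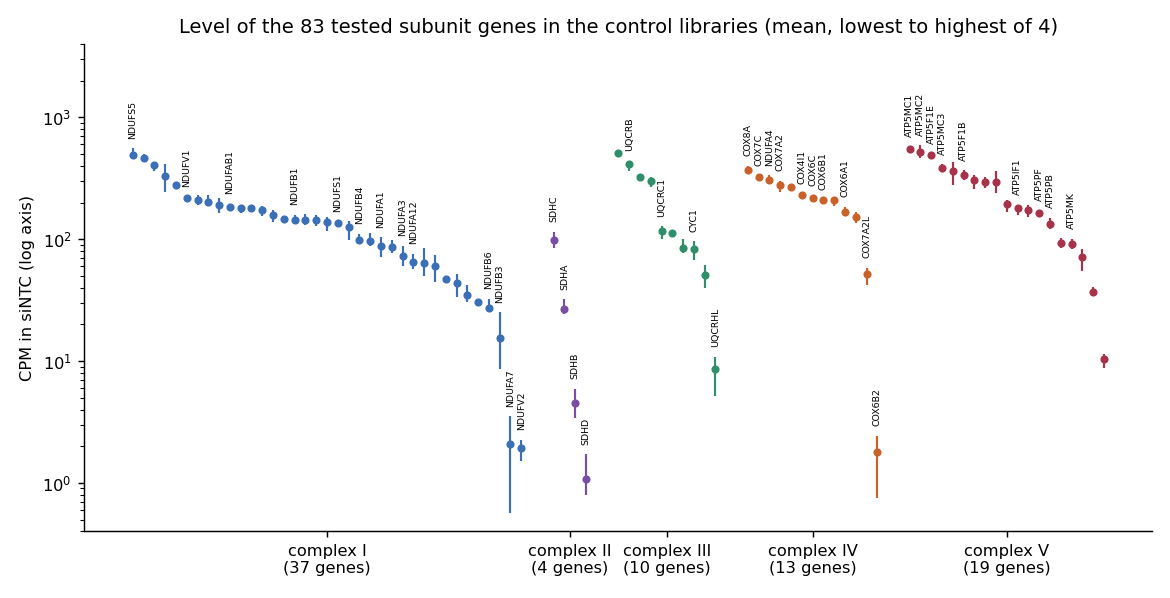
Level of the 83 tested subunit genes in the 4 control libraries, in CPM on a log axis, ordered by level within each complex. Points are means, names are given for some of the genes, and lines run from the lowest to the highest library; SDHD, NDUFV2, COX6B2, NDUFA7 and SDHB sit under 10 CPM, as does UQCRHL, and most others lie above 100 CPM.

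Within a complex, levels were unequal. In complex II, which links the citric acid cycle to the chain, the anchor SDHC stood at 99.1 ± 13.2 CPM and the flavoprotein SDHA at 26.6 ± 3.71. The iron-sulfur subunit SDHB was at 4.53 ± 1.19 CPM and the anchor SDHD at 1.08 ± 0.429, the lowest of the tested members. The complex I core subunit NDUFV2 was at 1.93 ± 0.353 CPM, whereas NDUFV1, also a core subunit, was at 219.6 ± 4.47. The 8 members that did not pass the filter included COX6A2 and COX7A1, isoforms best known from heart and skeletal muscle, and COX7B2, each listed at 0 in all 16 libraries. The other 5 were the readthrough rows NDUFC2-KCTD14, also at 0, and ATP5MF-PTCD1, with 1 count in all, and COX8C, COX4I2 and NDUFA4L2 with 40, 68 and 119 counts over the 16 libraries.

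Few subunit genes passed the test after knockdown in the main fit, which leaves the replicate number out, and those that did were higher. A gene that did not pass is not shown to be unchanged. Under si47, 7 of the 83 tested members rose and 0 fell, or 8.43%, against 9.74% of all genes tested called in either direction (4.91% higher, 4.83% lower; edgeR's quasi-likelihood test, Benjamini-Hochberg adjusted p under 0.05). Over the mean of the 3 siRNAs, 4 rose and 0 fell, or 4.82%, against 7.14% of all genes (3.61% higher, 3.53% lower). For si45 the count was 0 against a background of 1.34%, and for si46 it was 0 against 3.4%. DESeq2 and limma-voom also called 0 members in both, and without the low-count filter 1 and 2 members were called (backgrounds 1.23% and 2.38%). At an unadjusted p under 0.05, 8 members were higher and 1 lower under each of si45 and si46, against 5.95% and 5.45% of all genes under si45 and 7.79% and 7.17% under si46. Under si47 the counts were 19 and 2, against 11.8% and 11.6%. In either direction the shares of members called in the main fit were thus close to or below those of all genes. Counted as higher only, 8.43% and 4.82% of members stand beside 4.91% and 3.61% of all genes, and that difference was not tested. Other settings gave more calls. With the replicate number as a block, 18 of the 83 were higher and 0 lower under si47, against 15.5% of all genes called (7.52% higher, 7.96% lower). For the mean 12 were higher and 1 lower, against 12.8% (6.26% higher, 6.55% lower). Under si45 2 were higher (background 4.07%, 2.35% higher). Under si46 4 were higher and 1 lower (7.56%, 4.13% higher). DESeq2 called 11 under si47, all higher (11.4% of all genes, 5.76% higher). These differences in the share called higher were not tested either. All 4 comparisons use the same control libraries, so they are not independent. In bulk libraries a change in which cells are present and in the RNA each cell holds cannot be told apart.

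The median log2 fold change of the 83 tested members was 0.07 for si45, 0.08 for si46, 0.12 for si47 and 0.07 for the mean, while that of all genes tested was within 0.0043 of 0. Libraries overlapped: measured against the control mean, the median member was between -0.05 and 0.04 in the controls and between -0.02 and 0.24 in the knockdown libraries. Values were positive for 57, 53, 58 and 56 of the 83 in the same order. Changes were small: 79 or 80 of the 83 were under 0.5 in size on the log2 scale in every comparison with siNTC. At an unadjusted p under 0.05, 18 members (21.7%) were higher and 1 lower for the mean, against 10.1% and 10.3% of all genes. By complex, the median for the mean of the 3 siRNAs was 0.33 in complex II, 0.13 in complexes IV and V, 0.07 in complex III and 0.00 in complex I. The share of positive values was 4 of 4, 12 of 13, 13 of 19, 8 of 10 and 19 of 37 in that order. The median of complex I changed sign among the alternative settings, between -0.01 and 0.03, and those of the other complexes stayed above 0.

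**Figure D2:**
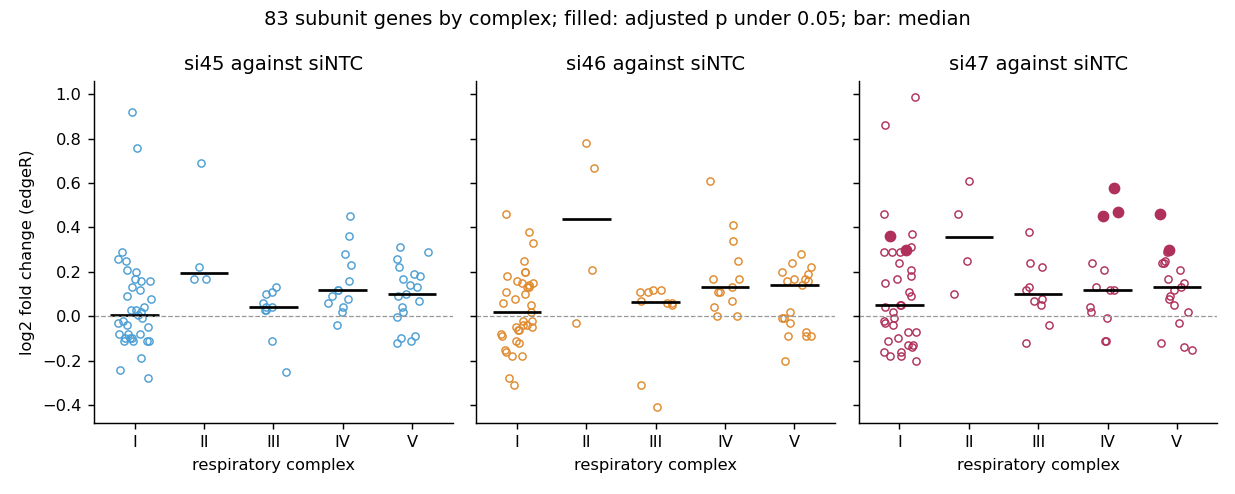
Log2 fold change of each of the 83 tested subunit genes against siNTC, by complex, for si45, si46 and si47; each circle is a gene, filled circles have an adjusted p under 0.05 and bars are medians. The 7 filled circles are all under si47 and all above 0, and the bar of complex I lies near 0 in each panel.

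Complex IV held 3 of the 4 members that rose over the mean of the siRNAs. COX7A2L, a COX7A-family protein that takes part in joining complexes III and IV into supercomplexes (GENCODE v29 on GRCh38, chr2:42333546-42425088, minus strand), was at 42.3, 52.2, 52.6 and 58.5 CPM in the controls. It was at 77.0, 72.8, 47.3 and 65.8 under si45, at 63.3, 71.1, 54.7 and 84.9 under si46 and at 82.8, 68.9, 71.9 and 83.6 under si47. All 4 si47 libraries were above all controls, as were 10 of the 12 knockdown libraries. Those of si45 and si46 that were not are both replicate 3. COX7A2L rose by 0.45 on the log2 scale over the 3 siRNAs (SE 0.115, adjusted p 0.0134) and by 0.58 under si47 (SE 0.138, adjusted p 0.00563), a 1.5-fold change. Leaving out control replicate 1, the lowest control, took the adjusted p of the mean to 0.0934, while the call under si47 was kept without any single library.

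COX6C, a small subunit of complex IV (chr8:99873200-99894062, minus strand, with VPS13B overlapping on the other strand), was at 203.0, 208.3, 227.5 and 224.3 CPM in the controls and at 287.2, 289.2, 242.1 and 376.9 under si47. The si47 libraries lay above all controls, whereas 1 si45 library, at 226.8, and 1 si46 library, at 213.4, lay within the control range. It rose by 0.32 over the siRNAs (SE 0.0950, adjusted p 0.0381) and by 0.47 under si47 (adjusted p 0.00773). NDUFA4, first assigned to complex I and now placed in complex IV (chr7:10931951-10940256, minus strand), was at 289.7, 305.3, 284.6 and 334.6 CPM in the controls and at 419.2, 399.7, 340.7 and 495.8 under si47. Under si45 it was at 456.1, 331.0, 284.9 and 399.1, so 2 of the 4 libraries overlapped the controls. NDUFA4 rose by 0.35 over the siRNAs (SE 0.105, adjusted p 0.0428) and by 0.45 under si47 (adjusted p 0.0259). The calls over the siRNAs depended on single libraries: that of COX6C was lost in 7 of the 16 fits that left 1 out (adjusted p up to 0.143) and that of NDUFA4 in 9 (up to 0.144). Under si47 the call of NDUFA4 was lost in 5 of these fits (up to 0.0935) and that of COX6C in 0. The losses over the siRNAs include every control left out in turn.

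The other complex IV genes did not pass the test in the main fit. Of these, COX7C, named after its values were seen, was called higher under si47 in several other settings. They include DESeq2, upper-quartile factors, the replicate block and the fit without the third replicates. COX6B1, a subunit facing the intermembrane space, was above all controls in 11 of 12 knockdown libraries, at 208.9 ± 4.24 CPM in siNTC and 228.3 ± 7.59 under si47, with a log2 fold change of 0.12 over the siRNAs (adjusted p 0.295). COX4I1, whose product is the ubiquitous form of subunit 4, was at 230.0 ± 6.25 CPM in siNTC and 228.6 ± 20.8 under si47 (0.04 over the siRNAs, adjusted p 0.821). COX7A2 and COX8A gave 0.13 and -0.05 (adjusted p 0.273 and 0.738), and COX6A1 0.03 (adjusted p 0.899).

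In complex V, ATP5F1E (chr20:59025467-59032382, minus strand, with TUBB1 overlapping on the other strand) had the tightest controls of the genes that rose, at 483.2, 501.8, 483.4 and 506.4 CPM. The knockdown libraries were at 639.6, 638.3, 511.3 and 629.7 under si45, at 593.9, 638.9, 494.6 and 604.7 under si46 and at 613.0, 641.4, 541.7 and 642.4 under si47. All but 1 of the 12 were above every control, and replicate 3 was the lowest of each knockdown group. ATP5F1E rose by 0.28 over the siRNAs (SE 0.0725, adjusted p 0.0135) and by 0.30 under si47 (adjusted p 0.0211). It was the si45 gene nearest the threshold among the members, at 0.29 (adjusted p 0.095). Without control replicate 1 or 3 the adjusted p over the siRNAs was 0.0563 and 0.0559. The si47 call was lost in 4 of the 16 fits, without either of these controls or si47 replicate 2 or 4 (adjusted p up to 0.0712).

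ATP5MK, a small membrane subunit also known as DAPIT (chr10:103389041-103396492, minus strand), was at 82.7, 91.0, 90.0 and 100.4 CPM in the controls and at 131.7, 139.2, 91.7 and 139.5 under si47. Replicate 3 of si47 fell inside the control range and the other 3 were above it. It rose by 0.46 under si47 with an adjusted p of 0.0497, and its value over the siRNAs was 0.33 (adjusted p 0.112). The si47 call was lost in 11 of the 16 fits that left 1 library out.

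ATP5PF, a part of the peripheral stalk that holds the F1 head still (chr21:25716503-25735673, minus strand, with GABPA and JAM2 overlapping on the other strand), was the only tested member with all 12 knockdown libraries above all 4 controls. The same held for 1.49% of all genes tested. Its controls were at 166.6, 160.5, 164.3 and 170.4 CPM, and the knockdown libraries ran from 173.0 (si46 replicate 3) to 213.9 (si47 replicate 4). The log2 fold change over the siRNAs was 0.20 (SE 0.0687, adjusted p 0.0778), so it did not pass the test in the main fit. Over the siRNAs ATP5PF did pass by DESeq2 (adjusted p 0.0382), with the replicate block (0.0242) and without si45 replicate 3 (0.0486). ATP5F1B, the catalytic beta subunit, was at 335.1 ± 31.8 CPM in siNTC and 395.1 ± 24.2 under si47 (0.17 over the siRNAs, adjusted p 0.156, and 0.0305 with the replicate block). ATP5PB, also of the stalk, gave 0.18 (adjusted p 0.236), and ATP5IF1, which inhibits ATP hydrolysis by the enzyme, gave 0.15 (adjusted p 0.259). The 6 membrane accessory subunits, ATP5MK among them, were evenly split, with 3 of 6 positive.

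**Figure D3:**
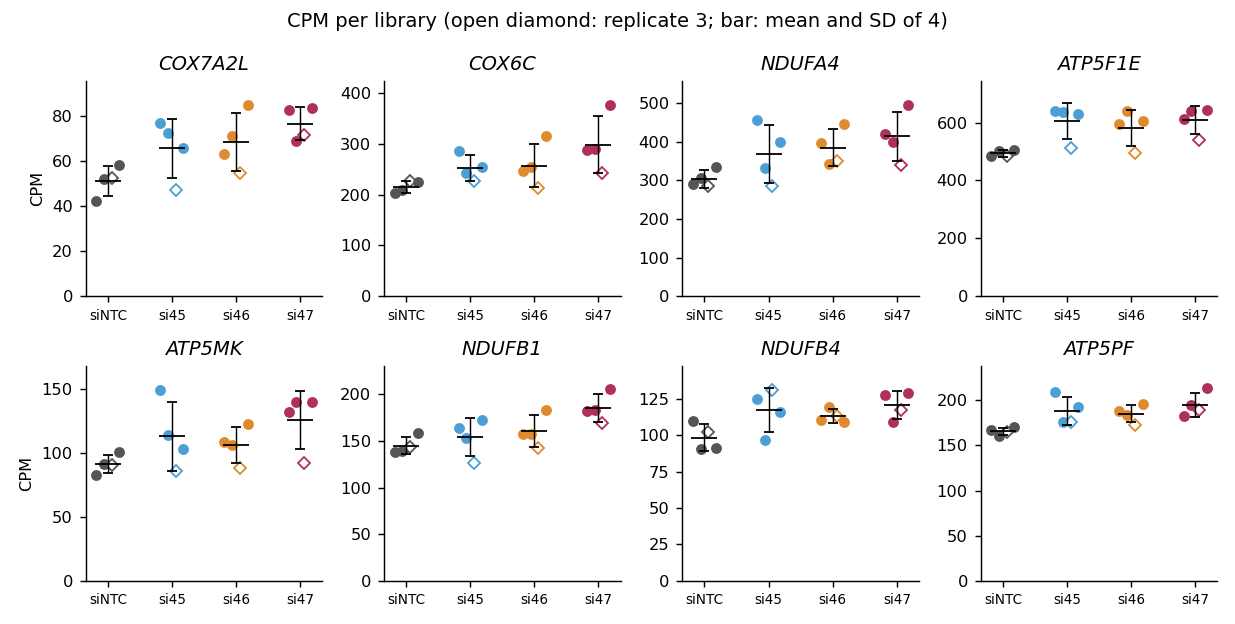
CPM in each library of the 7 subunit genes that rose under si47 and of ATP5PF, by group, with replicate 3 as an open diamond and bars for mean and SD of 4. All axes start at 0. Replicate 3 is the lowest si47 library of COX6C, NDUFA4, ATP5F1E, ATP5MK and NDUFB1, and only ATP5PF has every knockdown library above every control.

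TPX2 was highest in replicate 3 of each knockdown group, at 121.0, 93.8 and 76.3 CPM, and ATP5F1E, ATP5MK, COX6C and NDUFB1 were lowest there in all 3 groups. COX7A2L and NDUFB4 were not lowest in si47 replicate 3. The part of this in the results was not tested. Without replicate 3 of every group, an alternative chosen after seeing the data, 4 members were called under si45, 2 under si46 and 11 under si47, all higher. Over the mean of the siRNAs 10 were higher and 1, NDUFB10, lower. The shares of all genes called in that setting were 2.64%, 4.34%, 11.3% and 9.31%, also above those with all libraries. Counted as higher only, they were 1.77%, 2.58%, 5.79% and 4.67%.

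In complex I, 2 of 37 tested genes rose, both accessory subunits and both under si47. NDUFB1 (chr14:92116122-92121917, minus strand) was at 138.2, 139.5, 143.2 and 158.0 CPM in the controls and at 182.6, 182.7, 169.4 and 205.7 under si47, with no overlap. It rose by 0.36 (SE 0.0965, adjusted p 0.0141). Under si45 it was at 163.8, 153.4, 126.2 and 172.5, which spans the controls, and its value over the siRNAs was 0.20 (adjusted p 0.138). NDUFB4 (chr3:120596309-120602500, plus strand) was at 110.1, 90.9, 102.1 and 91.1 CPM in the controls and at 128.1, 109.2, 117.6 and 129.2 under si47, where 1 of 4 libraries overlapped the controls. It rose by 0.30 with an adjusted p of 0.0489, a call lost with RLE factors (0.051) and in 11 of the 16 fits without 1 library. Reads from its 12 named pseudogenes, copies elsewhere in the genome, could also be confused with it, and adding their counts gave an adjusted p of 0.0502.

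The 7 core subunits of complex I, among them the carriers of the flavin and the iron-sulfur clusters, gave no call and had a median of -0.11 over the siRNAs, with 1 of 7 positive. These were singled out after their values were seen. The NADH-binding NDUFV1 was at 219.3, 213.8, 224.7 and 220.5 CPM in the controls, and 9 of 12 knockdown libraries were below all of these, from 166.3 to 205.2, while 2 were above. Its value over the siRNAs was -0.14 (adjusted p 0.29). NDUFS1, an iron-sulfur protein and the largest subunit of the complex, was the only tested member with all 4 si47 libraries below all controls, a pattern seen in 6.98% of all genes. It was at 135.5 ± 5.21 CPM in siNTC and 117.8 ± 8.38 under si47 (log2 fold change -0.20, adjusted p 0.141). The 30 accessory subunits had a median of 0.04, with 18 positive. Their widest values came from genes whose libraries disagree: NDUFB3, also singled out, was at 25.2, 8.60, 18.7 and 9.54 CPM in the controls and at 52.0, 10.9, 11.6 and 47.9 under si47 (0.99, adjusted p 0.361). The accessory genes NDUFA3, NDUFA1, NDUFA12, NDUFS5 and NDUFB6 were among the members of lowest p over the siRNAs. None passed in the main fit. In the 16 fits without 1 library their values over the siRNAs were all positive. The ranges were 0.16 to 0.35, 0.21 to 0.38, 0.15 to 0.28, 0.12 to 0.2 and 0.23 to 0.37 in that order. Over the siRNAs NDUFA1 passed with the replicate block (adjusted p 0.0429) and NDUFA3 without control replicate 3 (0.0311).

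Libraries that did not overlap the controls were also counted. All 4 si47 libraries were above all controls for 14 of the 83 members, against 7.41% of all genes tested. The corresponding counts were 5 for si46 (background 5.06%) and 2 for si45 (background 3.36%). The si47 genes included the COX7C gene of complex IV and NDUFAB1, the mitochondrial acyl carrier protein, at 185.2 ± 7.67 CPM in siNTC and 200.5 ± 4.20 under si47 (0.11, adjusted p 0.391); both were named after their values were seen.

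Complexes II and III gave no call in the 7 comparisons of the main fit. With the replicate number as a block, SDHC and UQCRB were called higher under si47. In that fit SDHC was higher and UQCRC1 lower over the siRNAs, and UQCRC1 was lower under si46. UQCRC1, a core protein of complex III, had the lowest p among members with a negative value. It was at 115.9, 100.6, 127.5 and 124.4 CPM in the controls, and 7 of 12 knockdown libraries were below all of these. Under si46 it was at 86.7, 91.5, 104.5 and 94.1, and over the siRNAs its log2 fold change was -0.23 (SE 0.0800, adjusted p 0.0785). Without control replicate 2, the lowest control, it was called lower under si46 and over the siRNAs (adjusted p 0.0421), and without si47 replicate 3 over the siRNAs (0.0395). Without si46 replicate 3 it was called lower under si46. With the block its adjusted p over the siRNAs was 0.0223. The heme protein CYC1 was at 83.6 ± 13.0 CPM in siNTC, and no knockdown library lay outside the control range (0.06, adjusted p 0.737). In complex II, SDHC was at 99.1 ± 13.2 CPM in siNTC and 117.7 ± 11.4 under si47 (0.21 over the siRNAs, adjusted p 0.174). SDHA gave 0.08 (adjusted p 0.771), SDHB 0.45 (adjusted p 0.366) and SDHD 0.69 (adjusted p 0.454). The last 2 have few counts, so the high median of complex II rests on genes whose changes are poorly measured.

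The summed level of all 91 members was 15085.6 ± 621.3 CPM in the controls. It was 15753.0 ± 754.8 under si45, 15728.3 ± 582.3 under si46 and 16126.3 ± 856.3 under si47. These sums are 1.51%, 1.58%, 1.57% and 1.59% of all counts, and the libraries of each knockdown group overlapped the controls. Complex I held 5483.7 ± 216.5 CPM in siNTC and 5615.9 ± 241.3 in si47, and complex IV 2783.8 ± 95.3 and 3097.3 ± 213.6. All 4 si47 libraries of complex IV, from 2888.7 to 3395.9, lay above the highest control at 2866.7, whereas those of si45 and si46 overlapped the controls. Complex V was at 4685.8 ± 278.8 and 5078.5 ± 331.0 CPM with overlap.

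**Figure D4:**
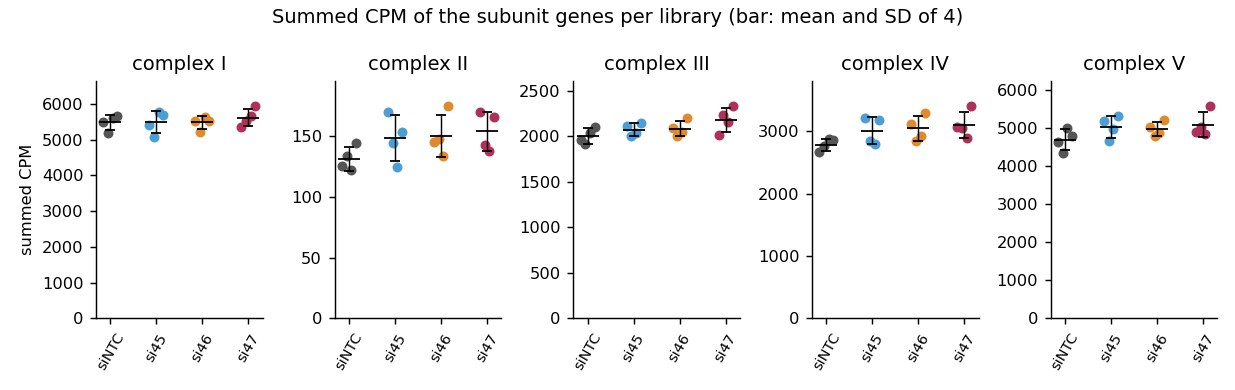
Summed CPM of the subunit genes of each complex in each of the 16 libraries (points) with mean and SD of 4 (bars); axes start at 0. The groups overlap in complexes I, II, III and V, and in complex IV the si47 libraries lie above all controls.

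The siRNAs were also compared with each other. No member was called between si46 and si45 (background 0.0282%), si47 and si45 (0.169%) or si47 and si46 (0.0493%) by edgeR, and DESeq2 and limma-voom also called 0. At an unadjusted p under 0.05, 1 member differed in the first pair (background 4.1%), 6 in the second (10.4%) and 5 in the third (7.29%). NDUFB1 was 0.27 higher under si47 than under si45 (SE 0.0963, adjusted p 0.264). Libraries of si45 and si47 with the same replicate number varied together, and with the replicate number as a block the adjusted p of this difference was 0.0365. The genes that rose under si47 were thus not shown, other than NDUFB1 in that blocked fit, to differ from the other siRNAs. For COX7A2L the difference between si47 and si45 was 0.22 (SE 0.136, adjusted p 0.602), and for ATP5F1E it was 0.01 (SE 0.0872, adjusted p 0.982).

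Several subunits have isoform genes, whose shares of the counts are given as descriptions. The 3 c-subunit genes encode the same mature protein with different import sequences. ATP5MC1 held 37.6% ± 0.951 of their counts in the controls, and 36.3% ± 1.43, 34.4% ± 1.95 and 32.9% ± 3.75 under si45, si46 and si47. ATP5MC3 held 26.5% ± 0.371, 27.6% ± 1.49, 27.6% ± 2.19 and 30.5% ± 1.89 in the same order. For ATP5MC3 the si47 libraries, from 28.2% to 32.8%, did not overlap the controls, from 26.1% to 27.0%. Its log2 fold change was 0.25 under si47 (adjusted p 0.0562) and 0.20 over the siRNAs (adjusted p 0.0787), beside -0.15 under si47 for ATP5MC1 (adjusted p 0.254).

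Among COX7A genes, COX7A1 was at 0 and COX7A2L held 15.5% ± 0.857 of the counts in siNTC and 20.2% ± 2.57 in si47, with COX7A2 making up the rest. The lung- and hypoxia-linked COX4I2 was at 0.961 ± 0.577 CPM in the controls and at 1.11 ± 0.375, 0.208 ± 0.0901 and 0.622 ± 0.250 CPM under si45, si46 and si47. NDUFA4L2, a hypoxia-induced relative of NDUFA4, was at 1.05 ± 0.631 CPM in siNTC and 1.10 ± 0.530 in si47. COX6B2, best known from testis, was at 1.79 ± 0.723 and 1.96 ± 1.10 CPM. These isoforms were near the counting limit in all groups.

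Subunit genes have many processed pseudogenes, and reads that fit both a gene and a copy may be counted for either or dropped. The table holds 189 rows named as pseudogenes of 50 members, and 54 of them had counts, 5211 in all, or 0.346% of the 1505451 counts of members. NDUFV2 stood apart: it had 172 counts over the 16 libraries and its pseudogene NDUFV2P1 on chromosome 19 had 2043. In siNTC the 2 were at 1.93 ± 0.353 and 24.2 ± 5.77 CPM. SDHA had 2672 counts, and its copies SDHAP1, SDHAP3 and SDHAP4 had 266, 649 and 1224. The levels of NDUFV2 and SDHA are therefore uncertain. SDHD, with 153 counts, and NDUFA7, with 314, each overlap another gene on the same strand. How reads in such an overlap were counted is not known, so their low levels are uncertain too.

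**Figure D5:**
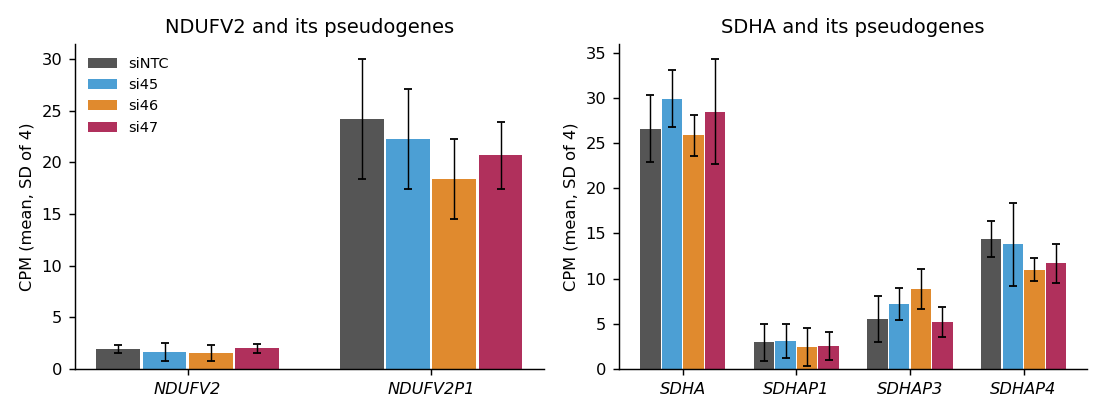
CPM of NDUFV2 and SDHA and of their pseudogenes with counts, as mean (bars, from 0) and SD of 4 libraries in each group. NDUFV2P1 is above NDUFV2 in all 4 groups, and SDHA is above each of its copies.

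Other genes of the same pathways were also counted, beside 9.74% of all genes called under si47 and 7.14% over the mean of the siRNAs. Differences of the lists from these shares were not tested. Over the mean, none of 18 complex I assembly factors or 37 tested assembly factors of complexes II to V passed the test. Nor did any of 20 genes of mitochondrial biogenesis and mitochondrial DNA expression or 18 genes of the citric acid cycle and pyruvate dehydrogenase. The medians of these lists were 0.00, 0.04, 0.05 and -0.01. The copper chaperone COX17 was nearest in the second list (0.65, SE 0.200, adjusted p 0.061), and the nuclear receptor ESRRA nearest in the third (0.57, adjusted p 0.0807). COX17 passed by DESeq2 (adjusted p 0.00427), by limma-voom (0.0376), without the low-count filter and with the replicate block. ESRRA passed with the block (0.0227). Under si47 ESRRA rose by 0.83 (adjusted p 0.0216), while PPARGC1A, its coactivator and picked for that role alone, was at 0.14 (adjusted p 0.785). TIMMDC1, which helps to build complex I, rose by 0.28 under si47 (adjusted p 0.0428).

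Of 16 tested electron carriers and entry enzymes, 1 rose over the siRNAs and 0 fell, against 7.14% of all genes called, with a median of 0.09. This was ETFA, a subunit of the flavoprotein that brings electrons from fatty acid oxidation, at 132.1 ± 10.3 CPM in siNTC and 177.2 ± 8.05 in si47 (0.34 over the siRNAs, SE 0.0913, adjusted p 0.018). Under si47, 2 of the 16 rose and 1 fell, against 9.74% of all genes called. COQ8A, needed to make ubiquinone, rose by 0.41 (adjusted p 0.0279). GPD2, the glycerol phosphate dehydrogenase that feeds ubiquinone, fell, with a log2 fold change of -0.47 (adjusted p 0.0269). It was also named after its values were seen. Of 16 tested pores, import and carrier genes, 1 rose and 1 fell over the siRNAs, against 7.14% of all genes called, with a median of 0.06. SLC25A4, an ADP/ATP carrier, rose by 0.48 (SE 0.142, adjusted p 0.0315), from 15.0 ± 2.33 CPM in siNTC to 25.1 ± 3.05 in si47. TIMM50, of the inner membrane import machinery, had a log2 fold change of -0.25 (adjusted p 0.0481), and 10 of 12 knockdown libraries lay beneath every control. The TIMM50 call was lost in 13 of the 16 fits without 1 library, that of SLC25A4 in 4 and that of ETFA in 2. VDAC1, the main outer membrane pore and named after its values were seen, fell under si46, with a log2 fold change of -0.64 (adjusted p 6.84e-06), while it was 0.23 under si45 and 0.10 under si47 with adjusted p of 0.228 and 0.506. VDAC1 also differed between the siRNAs, with si46 beneath si45 (log2 difference -0.87, SE 0.0854, adjusted p 8.51e-08) and si47 above si46 by 0.74 (adjusted p 4.62e-06).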

How the data were processed

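Total RNA of 16 IMR32 libraries was profiled by 3′ QuantSeq. The authors deposited raw counts per Ensembl gene, whole numbers that were not normalized. FastQC 0.11.7, STAR 2.7.2b, edgeR 3.36.0, limma 3.50.3 and GRCh38 are named, per the submitters' processing notes. The counter, its annotation, its use of strand and its handling of reads with several matches are not given in the sources used here. Whether reads of a gene and of one overlapping it on the other strand were kept apart is therefore unknown: 45 members overlap such a gene, and 34 a gene on the same strand.

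Symbols came from a gene name table (58434 of 58787 identifiers matched), types and positions from GENCODE v29 (58515 matched). The members and lists were chosen with earlier results of these data known. edgeR 4.0.16 (R 4.3.3) was run on the counts with filterByExpr (minimum count 10, minimum total 15), TMM factors, 4 group means over all 16 libraries, robust quasi-likelihood fits and 7 contrasts. Benjamini-Hochberg adjustment ran over all 14193 genes tested, which hold at least 99.6% of each library's counts, with a threshold of 0.05. CPM use TMM library sizes. Standard errors were taken from the log2 fold change and its F statistic. Genes named were those past the threshold, then those of lowest p up to 20, then preset paralogues, isoforms and complex II genes; others are marked as singled out. The fit was tried on simulated counts, where it recovered most large changes but missed most small ones, so small changes can go uncalled. Alternatives used limma-voom 3.58.1, DESeq2 1.42.0, other factors, filters and sample sets. No 2 replicates agreed within sampling noise.

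Same-numbered libraries of si45 and si47 deviated together (correlations 0.12 to 0.242 over genes, all over 0.1), and a fit with the replicate number as a block is given as an alternative. The precision is set by 4 libraries a group and, for members such as SDHD, by few counts.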

Additional observations from a re-analysis of the deposited data

Results flagged for a closer look

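In 10 of 136 groups of 4 libraries, 1 library stood far from the other 3, with a gap to the nearest that, as a share of the group's whole range, passed Dixon's critical value. Chance alone gives about 1 in 20 groups, or 6.8 here. Of the 10, 2 lie in genes that rose and in replicate 3 of a knockdown group. ATP5F1E was at 511.3 CPM in si45 replicate 3, with the other 3 at 629.7 to 639.6. ATP5MK was at 91.7 CPM in si47 replicate 3, with the others at 131.7 to 139.5. TPX2 was at 121.0 CPM in si45 replicate 3, with the others at 79.4 to 85.1.

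The remaining 7 are spread over groups. ATP5MC3 was at 535.2 CPM in si47 replicate 4 against 425.3 to 436.8, and ATP5MC1 at 519.8 in si45 replicate 2 against 586.8 to 590.7. SDHB was at 10.4 CPM in si46 replicate 4 against 6.18 to 6.23. In siNTC, NDUFS5 was at 556.4 in replicate 4 against 468.3 to 478.5, NDUFB6 at 32.5 in replicate 1 against 25.2 to 26.4, SDHA at 32.2 in replicate 3 against at most 25.0, and COX6A1 at 183.3 in replicate 3 against 158.6 to 162.2.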

How the results depend on the processing

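No value past the threshold changed direction under the alternatives run; among named members over the siRNAs, the near-zero values of CYC1, COX4I1 and COX6A1, none of them called, changed sign in some. The number of members called was not stable, and the share of all genes called moved too. With the block that share was 4.07% under si45, 7.56% under si46, 15.5% under si47 and 12.8% for the mean. Under si47 it was 11.4% by DESeq2 and 11.3% without the third replicates, where it was 9.31% for the mean. The number of members called under si45 was 0, and 1 without the low-count filter, 2 with the replicate block, 4 without the third replicates and 0 to 2 when 1 library was left out. Under si46 it was 0, and 2 without the filter, 1 with only the groups compared, 5 with the block (UQCRC1 lower, the rest higher), 2 without the third replicates and 0 to 3 without 1 library. Under si47 it was 7, and 11 by DESeq2, 18 with the block (SDHC and UQCRB among them), 11 without the third replicates, 2 at an adjusted p under 0.01 and 2 to 12 without 1 library. Without si47 replicate 4 it was 2 (beside 7.26% of all genes), and without si47 replicate 3 it was 12 (11.5%). It was 4 without si47 replicate 1 (6.46%), siNTC replicate 2 (7.12%) or siNTC replicate 3 (7.74%). For the mean of the siRNAs it was 4, and 13 with the block (UQCRC1 lower, the rest higher), 11 without the third replicates (NDUFB10 lower, the rest higher), 0 at an adjusted p under 0.01 and 1 to 8 without 1 library. It was 1 without siNTC replicate 1 (beside 4.35% of all genes), and 2 without siNTC replicate 3 (4.66%), siNTC replicate 4 (4.36%) or si45 replicate 4 (6.4%). It was 8 without si45 replicate 3 (9.58%) and 7 without si47 replicate 3 (8.92%). Between si47 and si45 it was 0, and 1 with the block; the other pairs stayed at 0, as did all 3 pairs without 1 library. The median over the siRNAs was 0.05 to 0.11 without 1 library.

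For the other lists over the siRNAs, assembly factors of complexes II to V gave 0 calls, and 1 by DESeq2, by limma-voom, without the filter and with the block, 3 without the third replicates and 0 to 1 without 1 library. Biogenesis gave 0, and 1 without the filter, 2 with the block and 0 to 1 without 1 library. Electron carriers gave 1, and 2 by DESeq2, without the filter and without the third replicates, 3 with the block, 0 at an adjusted p under 0.01 and 0 to 3 without 1 library. Pores and import gave 2, and 1 with upper-quartile factors, by limma-voom and with at least 10 counts in every library, 0 at an adjusted p under 0.01 and 0 to 3 without 1 library. Complex I assembly and the citric acid cycle stayed at 0.

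Of the pairs of groups, only si45 with si47 had every correlation over 0.1, and the labels tie the numbers to no shared culture or day. As a hint from the data, every library of each knockdown group correlated best with its own number in the other knockdown groups, and 2 to 4 of 4 did so between siNTC and a knockdown group. Depth limits SDHD, NDUFV2 and COX6B2.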
